A study of Mus musculus with 6 samples.

Results

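Dermal fibroblasts in which decitabine had switched on a silent GFP transgene were compared with GFP-negative fibroblasts from the same treatment. The comparison used 4 of the 6 arrays of the series, namely the 2 arrays titled G-positive and the 2 titled G-negative, and each GFP-positive array was paired with the GFP-negative array of the same replicate number. The cells were explant cultures of dermis from mice aged 0 to 2 days, at passage 4. The mice had a GFP transgene on the X chromosome under the chicken β-actin promoter and a CMV enhancer, inherited from transgenic fathers of mixed 129/ICR background mated to BL6 mothers, and the arrays are labelled B6. All cells had first been sorted for absence of GFP, which per the labels leaves cells whose transgene lies on the inactive X. Cells without the transgene, such as those of sons, would pass this sort as well and could later be found only among GFP-negative cells. The GFP-positive and GFP-negative cells then received 5-aza-2'-deoxycytidine (decitabine) at 4 μM for 48 hours, recovered for 24 hours in normal medium, and were separated by a further sort. The title, characteristics and protocol of these samples give the treatment, whereas their description calls the cells untreated while naming the dose, and they were taken as treated. The 2 control arrays hold cells without drug that were not sorted again, so that a difference between treated and control cells cannot be told apart from one of the further sort. The treated arrays are labelled female, whereas the label of control replicate 2 reads mixed sex. The study asked, among other things, whether collecting cells with an active transgene enriches for cells that the drug had affected. No source used here gives the purity of the fractions or the share of cells that became GFP-positive, and the GFP transcript itself was not analysed here.

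Decitabine is a cytidine analogue that is built into DNA during replication, where it traps the maintenance methyltransferase DNMT1, so that CpG methylation is lost as cells divide and differs from cell to cell. In female mammals 1 X chromosome of each cell is silenced under the control of the non-coding RNA Xist, and methylation of CpG-rich promoters helps to keep its genes off. A further class of genes held silent by promoter methylation in somatic cells are germline genes such as Dazl, an RNA-binding protein of germ cells, Tex19.1, which restrains retrotransposons in germ cells, and the X-linked homeobox gene Rhox5. The 250 bases upstream of the start of these 3 genes are shown because their transcripts rose with treatment and had a higher signal in GFP-positive cells within both pairs, though below the threshold of the test, and Ddit3 is shown because it had the smallest p-value of the comparison. They are RefSeq sequences on GRCm38.p6, printed 5′ to 3′ on the strand of the gene, with each CG dinucleotide in capitals (a palindrome, so that both strands hold it).
Dazl: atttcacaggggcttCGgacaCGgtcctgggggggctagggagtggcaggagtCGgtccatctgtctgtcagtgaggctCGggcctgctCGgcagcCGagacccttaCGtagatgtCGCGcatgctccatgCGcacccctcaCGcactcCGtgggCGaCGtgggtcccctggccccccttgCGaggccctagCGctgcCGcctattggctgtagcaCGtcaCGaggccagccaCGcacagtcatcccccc
Tex19.1: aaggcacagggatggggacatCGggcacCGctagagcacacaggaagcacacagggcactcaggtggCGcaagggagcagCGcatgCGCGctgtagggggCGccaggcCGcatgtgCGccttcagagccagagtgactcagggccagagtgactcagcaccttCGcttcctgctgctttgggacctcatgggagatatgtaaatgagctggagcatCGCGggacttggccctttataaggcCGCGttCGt
Rhox5: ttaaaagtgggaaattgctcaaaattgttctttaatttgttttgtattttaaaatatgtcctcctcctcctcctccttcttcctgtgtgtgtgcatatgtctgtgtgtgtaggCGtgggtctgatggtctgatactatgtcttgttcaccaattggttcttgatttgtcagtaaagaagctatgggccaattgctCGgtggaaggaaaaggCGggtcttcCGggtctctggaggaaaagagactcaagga
Ddit3: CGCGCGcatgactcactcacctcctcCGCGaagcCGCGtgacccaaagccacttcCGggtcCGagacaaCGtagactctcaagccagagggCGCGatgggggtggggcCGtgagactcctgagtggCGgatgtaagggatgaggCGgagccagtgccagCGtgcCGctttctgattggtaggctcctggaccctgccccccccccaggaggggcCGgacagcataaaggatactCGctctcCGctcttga
The windows are chr17:50293621-50293870 on the minus strand for Dazl, chr11:121145893-121146142 on the plus strand for Tex19.1, chrX:37754358-37754607 on the plus strand for Rhox5 and chr10:127290543-127290792 on the plus strand for Ddit3. They hold 20, 15, 4 and 20 CG dinucleotides, against a median of 6 over 32851 promoter windows of that length. Among 10643 genes measured here, each taken at its start with the most CG, the median was 16. The share of those windows with at least as many was 17.95% for Dazl and Ddit3, 27.31% for Tex19.1 and 62.23% for Rhox5. No methylation was measured on these arrays.

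The values are signals of Affymetrix mouse 430 2.0 arrays, on which a gene is read by 1 or more probe sets. The arrays numbered 2 differed from those numbered 1: their lower quartile of signal was 19.2 to 22.6 against 38.7 to 42.6 and their median 79.8 to 81.1 against 122.6 to 134.8. GFP-negative and GFP-positive replicate 2 had also been deposited on a smaller scale, with trimmed means of 62.0 and 50.5 against 500.003 or 500.004 on the others, and were brought to the common scale by factors of 8.06 and 9.90. Many results are therefore given within both pairs, pair 1 being replicate 1 and pair 2 replicate 2. A single difference is the one over both pairs. RNA quality was close in the fractions, with 3′ to 5′ signal ratios of 0.698 and 0.792 for Gapdh in GFP-positive cells against 0.700 and 0.835 in GFP-negative cells. The label of dermal fibroblasts fitted the markers: all 15 fibroblast markers were kept, and 14 of them lay above the array median on every treated array, the exception being Lum, the proteoglycan lumican, at 51.6 on GFP-negative replicate 2. Their summed signal was 210452 and 191522 in GFP-negative and 196251 and 196023 in GFP-positive cells. Smooth muscle markers met the same measure nearly as well, with 13 of 14 kept and 12 above the array median on every treated array. They summed to 94563 and 97306 in GFP-negative and 92057 and 111713 in GFP-positive cells. The markers thus do not tell fibroblasts from smooth muscle cells. The 22 keratinocyte markers, of which 12 were kept, summed to 4607 and 5152 in GFP-negative and 4807 and 6059 in GFP-positive cells, and the 24 leukocyte markers, of which 13 were kept, to 3132 and 2186 against 2870 and 2611.

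Over the whole array the fractions differed little. No probe set of 27022 tested passed an adjusted p of 0.05 (0.00%) in limma's moderated test with the replicate number as a block and Benjamini-Hochberg adjustment, where log2 differences were taken after adding an offset of 30.64 to each signal. At an unadjusted p under 0.05 there were 686 probe sets higher in GFP-positive cells (2.54%) and 867 lower (3.21%), or 1553 in all (5.75%). Without the block there were again 0 called and 169 at that unadjusted p. The 4 treated arrays fitted alone gave 52 calls, 28 of them higher, and leaving out 1 array at a time gave 1 to 42, the most without control replicate 1. With 2 arrays a group an exact permutation test that ignores the pairing cannot go below 0.333, two-sided, and one within the 2 pairs has a higher floor. In both pairs 7198 probe sets were higher (26.6%) and 7406 lower (27.4%), and for 2866 (10.6%) both GFP-positive arrays lay above both GFP-negative arrays, for 2711 (10%) below. The 2 pair differences had a correlation of 0.0555 across probe sets, which share their arrays and are not independent, and their SDs were 0.453 and 0.535 on the log2 scale. A difference of at least 1 in both pairs was seen for 63 probe sets higher and 63 lower, while 56 and 70 reached 1 in opposite directions. In bulk samples like these, a difference in the share of cells that express a gene and one in RNA per cell cannot be told apart. The individual genes below are thus described by their values, and the larger gene groups by counts set beside those of all genes.

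**Figure D1:**
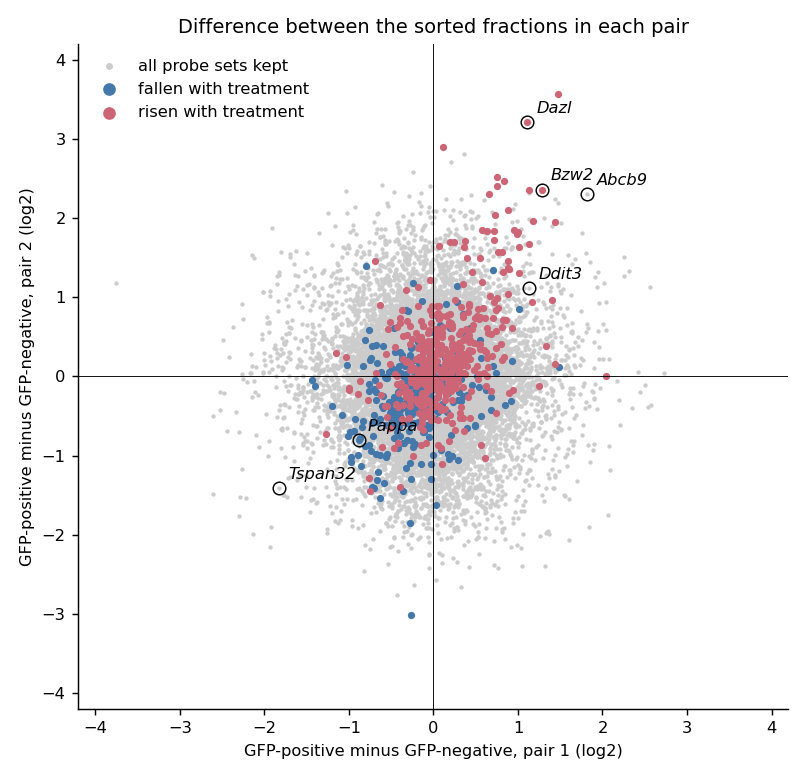
GFP-positive minus GFP-negative difference of each probe set (log2) in pair 1 (horizontal axis) and pair 2 (vertical axis), for all 27022 probe sets in grey, the 470 that rose with treatment in red and the 330 that fell in blue. Circles mark Ddit3, Dazl, Bzw2, Tspan32, Pappa and Abcb9. The grey cloud is nearly round, with r = 0.0555, while the red points reach to the upper right and the blue points lie mostly to the lower left.

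The smallest p-value belonged to Ddit3, which encodes CHOP, a transcription factor induced by stress of the endoplasmic reticulum. Its signal was 2341 and 2532 in GFP-negative cells, 5179 and 5536 in GFP-positive cells, and 3818 and 4318 in control cells. Control cells thus lay between the fractions, with GFP-negative cells below and GFP-positive cells above them. The difference between the fractions was 1.13 ± 0.13 on the log2 scale (2 pairs), 1.14 in pair 1 and 1.12 in pair 2. Here and below, the value after ± is the moderated SE of the limma fit over all arrays, not the spread between the pairs. The adjusted p in that fit was 0.0681. That adjusted p was 0.000137 with the 4 treated arrays alone and 1.00 without the block, and a dimmer probe set of the gene gave 0.14 in pair 1 and -0.58 in pair 2.

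The genes next to it by p-value were not called, with adjusted p-values of 0.515 or more. Dazl, the germ-cell RNA-binding protein, was read at 7.6 and 10.5 in control cells, 844 and 176 in GFP-negative cells and 1855 and 1889 in GFP-positive cells. Both GFP-positive arrays were above both GFP-negative arrays, and the latter were far above control. The difference between the fractions was 2.16 ± 0.44, 1.11 in pair 1 and 3.22 in pair 2, and the second Dazl probe set gave 0.89 and 2.10. One probe set of Bzw2, a regulator of translation initiation, had the same order, with 90.7 and 37.3 in control, 1520 and 290.2 in GFP-negative and 3742 and 1618 in GFP-positive cells (1.82 ± 0.30). The other probe set of Bzw2, at 1194 and 708 against 1115 and 675, did not show it, with -0.10 and -0.07 in the pairs. Its relative Bzw1 was 0.54 and 0.55 higher in the pairs (3896 and 5323 against 5670 and 7806), and 3 of its 5 probe sets were higher in both pairs.

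Of the further genes on the higher side, Gsr encodes glutathione reductase, which keeps the antioxidant glutathione reduced. It had signals of 630 and 783 in GFP-negative and 1026 and 1380 in GFP-positive cells, a difference of 0.74 ± 0.17, with both of its probe sets higher in both pairs. Ifrd1, a transcriptional co-regulator, had 3361 and 3678 against 5184 and 6580 (0.73 ± 0.13). Abcb9, a lysosomal peptide transporter, was dim at 52.4 and 25.8 against 263 and 247.4, and Tmem81 at 102.3 and 14.5 against 328.5 and 182.1. The 5 others were Paxip1 (1.65), Scyl2 (0.91), Ddx39b (0.64), Metap2 (0.61) and, as given above, Bzw1. For Paxip1, which acts in the DNA damage response, 2 probe sets were higher and 2 lower in both pairs, and for the RNA helicase Ddx39b 2 were higher and 1 lower, so that these genes have no single direction. For Metap2, a methionine aminopeptidase, 1 of 4 probe sets was higher in both pairs. In each of the 12 genes both GFP-positive arrays lay above both GFP-negative arrays, but this was a condition of their choice and is no result. A higher signal within both pairs was a condition too, and the 12 genes on the lower side met the mirrored conditions.

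On the lower side, Pappa, a protease that releases insulin-like growth factors, had signals of 3467 and 2664 in control, 1480 and 1081 in GFP-negative and 790 and 604 in GFP-positive cells. It fell with treatment (by 1.67, adjusted p = 2.83e-05 in limma) and was lower again in GFP-positive than in GFP-negative cells, by 0.88 in pair 1 and 0.81 in pair 2. Mfap5, a microfibril component, had the same order, from 2858 and 2377 in control through 1117 and 1619 to 588 and 795, and both of its probe sets were lower in both pairs. Rbms3, an RNA-binding protein of mesenchymal cells, went from 3644 and 4485 through 1763 and 2348 to 1109 and 997, with 4 of 4 probe sets lower in both pairs. Adamts12, a matrix protease, was lower by 0.81 and the paternally expressed imprinted gene Peg3 by 0.96 (-0.58 and -1.35 in the pairs). For Peg3, however, 2 of 3 probe sets were lower and 1 higher.

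The other genes on the lower side, Mpnd excepted, did not pass the test of treated against control cells. Tns1, tensin 1 of focal adhesions, had signals of 2513 and 4006 in control, 4548 and 3824 in GFP-negative and 2362 and 1692 in GFP-positive cells, and its 3 probe sets were all lower in both pairs. Srrm2, a splicing factor, had 910 and 651 against 546 and 187, also with 3 of 3 probe sets lower. The largest of these 12 differences was that of Tspan32, a tetraspanin, at 593.5 and 345.9 against 145.4 and 110.8 (-1.62 ± 0.28). The 4 remaining genes were Dnajb14 (-1.04, with -0.83 and -1.25 in the pairs), Mpnd (-0.81), Cmtm7 (-0.76) and Ago2 (-0.75), the last being the slicing protein of RNA interference. For Ago2 2 of 4 probe sets were lower in both pairs and for Cmtm7 1 of 2, so that these genes too lack a single direction.

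**Figure D2:**
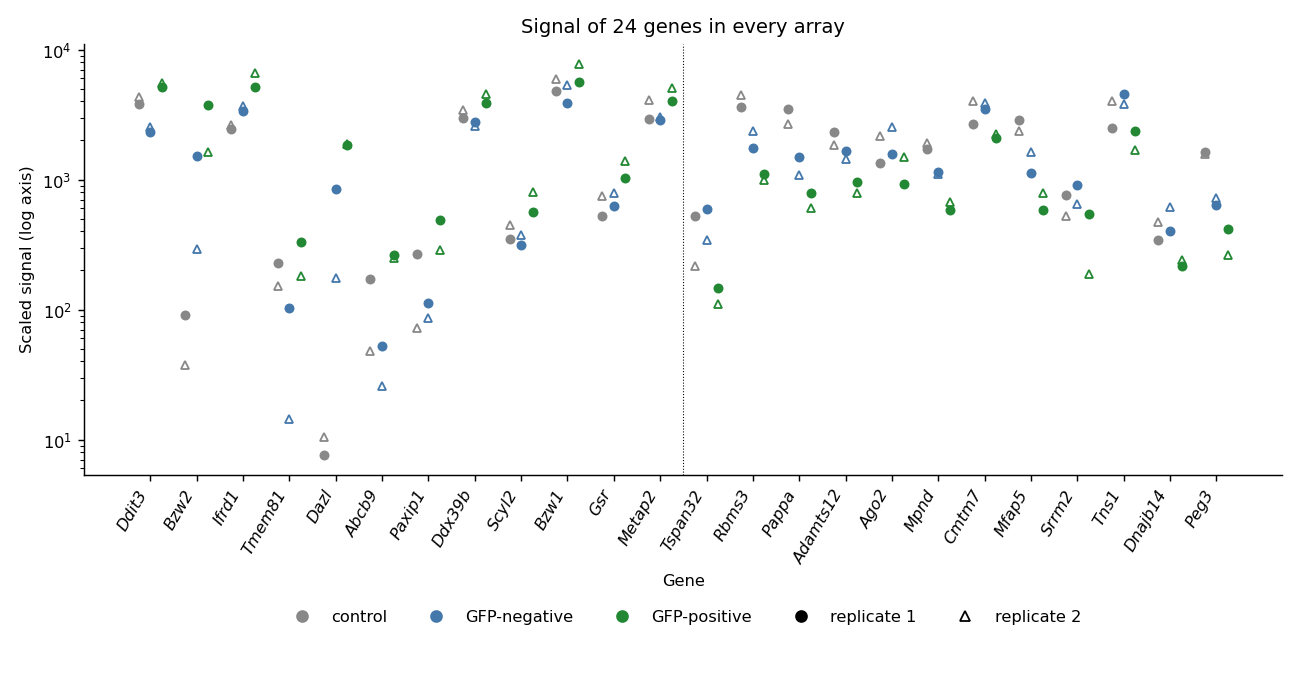
Scaled signal (log axis) of the 12 genes of smallest p on the higher side (left of the dotted line) and of the 12 on the lower side (right), with 1 point per array: control in grey, GFP-negative in blue, GFP-positive in green, circles for replicate 1 and triangles for replicate 2. All were chosen among genes with the same direction in both pairs and no overlap between the fractions. Dazl lies near 10 in control cells and at 1855 and 1889 in GFP-positive cells, and Ddit3 in control cells lies between the fractions.

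The comparison that bears on the question of enrichment took the transcripts that responded to treatment and read them between the fractions. Responders were probe sets for which the mean of the 4 treated arrays differed from control by at least 1 on the log2 scale at an adjusted p under 0.05 in limma. There were 470 that rose (1.74% of those tested) and 330 that fell (1.22%). This choice does not use the difference between the fractions, as both contrasts are orthogonal in the fit. The risen probe sets had a median GFP-positive minus GFP-negative difference of 0.13 (0.08 in pair 1, 0.17 in pair 2), and 207 of 470 were higher in both pairs (44.0%) and 98 lower in both. The fallen ones had a median of -0.21 (-0.21 and -0.25), with 184 of 330 lower in both pairs (55.8%) and 40 higher in both. Over all probe sets the median was -0.004, with 26.6% higher and 27.4% lower in both pairs. GFP-positive cells thus lay further from control than GFP-negative cells in the median of both sets, by an amount small beside the response itself, whose medians were 1.48 and -1.31.

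The difference was larger where the response was larger. Among the 87 probe sets that rose by at least 2, the median was 0.61 (0.40 and 0.74 in the pairs), and 61 were higher in both pairs (70.1%). Among the 21 that rose by at least 3 it was 1.00 (0.66 and 1.57), and 20 were higher in both pairs (95.2%). On the falling side the medians were -0.29 for the 54 that fell by at least 2, with 34 lower in both pairs, and -0.38 for the 10 that fell by at least 3, with 8 lower in both pairs. These sets are nested, and several probe sets may read 1 gene. A risen probe set that is dim elsewhere could be kept through the GFP-positive arrays alone, as were Trap1a and Mageb16, given below. This tilts the risen sets to the higher side.

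**Figure D3:**
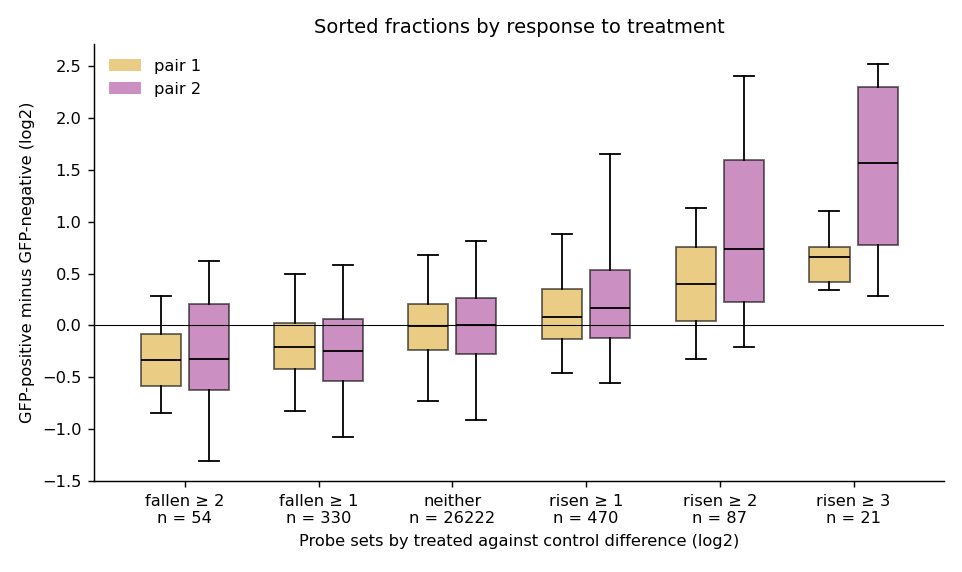
GFP-positive minus GFP-negative difference (log2) of probe sets grouped by their response to treatment, for pair 1 (yellow) and pair 2 (purple), with boxes from the lower to the upper quartile, a line at the median and whiskers from the 5th to the 95th percentile; sets of larger response lie within those of smaller response. The medians go from -0.33 and -0.32 for the 54 probe sets that fell by at least 2 to 0.66 and 1.57 for the 21 that rose by at least 3.

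Reading each pair with responders chosen in the other replicate number, so that no array served both steps, kept the direction for strong responders and for those that fell. Probe sets that rose by at least 3 in replicate 1 had a median difference of 1.60 in pair 2, with 29 of 32 higher, and those that did so in replicate 2 had 0.38 in pair 1, with 23 of 28 higher. For a rise of at least 2 the medians were 0.35 (115 of 161 higher) and 0.19 (120 of 179 higher). For a rise of at least 1, responders of replicate 1 had 0.11 in pair 2 (603 of 1053 higher), but responders of replicate 2 had -0.00066 in pair 1 (948 of 1900 higher), which is no shift. Probe sets that fell by at least 1 had -0.15 in pair 2 (442 of 736 lower) and -0.12 in pair 1 (619 of 1016 lower). In this reading the shift of probe sets that rose by at least 1 was seen in pair 2 only. Without the block only 36 probe sets rose and 13 fell, and their medians were 0.27 and -0.29.

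The strongest risen genes illustrate the range. Krt8 and Krt18, keratins of simple epithelia that fibroblasts normally hold silent, rose with treatment by 3.19 and 3.66 (adjusted p = 1.77e-06 and 2.64e-07 in limma). Krt8 had 93.9 and 125.8 in control, 852 and 1085 in GFP-negative and 1405 and 1832 in GFP-positive cells, and its 3 probe sets were all higher in both pairs. Krt18 had 2292 and 3341 in GFP-negative and 3026 and 4784 in GFP-positive cells, so that the fractions overlapped although each pair had the same order (0.40 and 0.51). Mnd1, which acts in meiotic recombination, had 3.0 and 4.8 in control, 621 and 80.6 in GFP-negative and 1135 and 586 in GFP-positive cells. P2rx7, an ATP-gated channel, was higher in both pairs by 3 of 3 probe sets that rose, the clearest at 144 and 58.0 against 442 and 314. Asb5, of the ankyrin repeat and SOCS box family, rose by 4.80 with treatment and was 0.35 and 0.77 higher in GFP-positive cells. Against this order, Lce1h, a gene of the cornified envelope, rose by 1.77 but was lower in GFP-positive cells by 0.46 and 0.91.

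Among the genes that fell, Ccn3, a matricellular protein, had 15436 and 9777 in control, 709 and 376 in GFP-negative and 547 and 243 in GFP-positive cells, and both of its probe sets were lower in both pairs. Dcn, the collagen-binding proteoglycan decorin, fell by 2.99 and had 2720 and 334 in GFP-negative against 1496 and 203 in GFP-positive cells. Ecrg4, a secreted peptide precursor, fell by 3.13 at its clearest probe set and was lower in GFP-positive cells by 0.27 and 1.86. Sfrp1, a secreted Wnt inhibitor, had 1 probe set 0.94 higher and 1 probe set 0.52 lower in GFP-positive cells, and Lum fell by 3.08 and was 0.08 and 0.59 higher in GFP-positive cells, so that not all strongly fallen genes went the same way.

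Promoter CG content did not order this difference. RefSeq promoters were matched for 10643 of 13223 genes, each taken at its start with the most CG. Their windows had a median of 16 CG dinucleotides, against 11 both in the 219 risen and in the 134 fallen genes that matched. The median GFP-positive minus GFP-negative difference of risen genes was 0.12 with 0 to 2 CG, 0.20 with 3 to 9, 0.15 with 10 to 19 and 0.18 with 20 or more. That of fallen genes lay between -0.37 and -0.17 over the same classes, and that of all matched genes between -0.03 and 0.01.

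Gene lists were read at the brightest probe set of each gene and set beside all 13223 genes, of which 27.6% were higher and 27.3% lower in both pairs, 2.52% were higher and 3.08% lower at an unadjusted p under 0.05, and 0 were called. No list therefore has a called member, and the median of all genes was 0.00. Against control, 605 of the 13223 genes had risen and 544 had fallen at an adjusted p under 0.05 in limma, by any amount. Counts of list members that had risen or fallen follow this rule, without the minimum size used for responders. The germline genes had the highest median, 0.49 (0.40 and 0.84 in the pairs). Only 26 of the 56 on the array were bright enough to be kept, so that the count does not speak for the other 30. A germline gene that is silent in control cells could be kept only through the treated arrays. It could be kept through the GFP-positive arrays alone, which tilts the median and the counts of this list to the higher side. The comparison with all genes is limited by this. Of the 26, 15 were higher and 2 lower in both pairs, 6 were higher at the unadjusted p, and 8 had risen with treatment. Their summed signal was 3036 and 2255 in control, 8138 and 4275 in GFP-negative and 11911 and 8577 in GFP-positive cells.

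The 6 germline genes higher at the unadjusted p, Dazl and the 5 that follow, had all risen with treatment. Rhox5 had 111.8 and 95.3 in control, 1282 and 597 in GFP-negative and 2185 and 1213 in GFP-positive cells, a difference of 0.87 ± 0.24. Tex19.1 had 921 and 449 in GFP-negative and 1536 and 893 in GFP-positive cells (0.83 ± 0.25). In both of these genes each pair had the same order but the fractions overlapped, since both arrays numbered 2 were lower. Gtsf1, a factor of the piRNA pathway, had 415 and 224 against 728 and 723 (1.17 ± 0.31), and Taf7l, a germ-cell subunit of the TFIID complex on the X, had 402.5 and 135.4 against 772 and 395 (1.12 ± 0.28). Slc25a31, an ADP/ATP carrier of germ cells, was higher by 0.83 and 1.32. The synaptonemal complex genes Sycp1 and Sycp3 were higher by 0.48 and 0.33 in pair 1 and by 1.55 and 1.75 in pair 2, though they did not pass the test of treated against control cells (adjusted p = 0.770 and 0.534 in limma). Tex15, of the meiotic germline, was 0.38 and 0.12 lower, a direction that turned without GFP-positive replicate 1 or GFP-negative replicate 2.

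**Figure D4:**
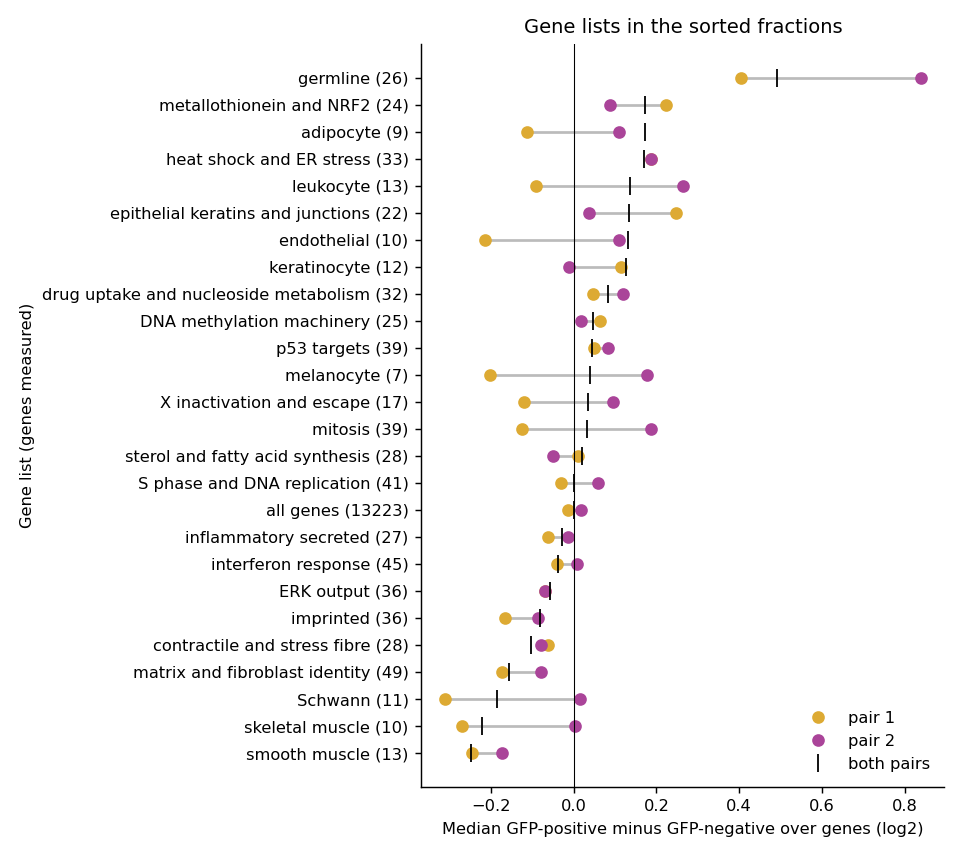
Median GFP-positive minus GFP-negative difference (log2) over the kept genes of each list, in pair 1 (yellow), pair 2 (purple) and as the mean of both pairs per gene (black tick), with the number of genes in brackets. Germline genes lie at 0.40 and 0.84, the matrix and smooth muscle lists lie below 0 in both pairs, and the list of all genes lies near 0, at -0.01 and 0.02.

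Stress genes were higher in the GFP-positive than in the GFP-negative fraction, by small amounts in the median. Of 33 genes of heat shock and endoplasmic reticulum stress 19 were higher and 1 lower in both pairs, with a median of 0.17 (0.19 in either pair), and 6 were higher and 1 lower at the unadjusted p. Beside Ddit3 these were Hsp90aa1, a cytosolic chaperone, at 21077 and 16853 against 24188 and 24623, Hspa5, the lumenal chaperone BiP, 0.24 and 0.36 higher, Hspa1a, an inducible HSP70, 0.73 and 0.40 higher, Herpud1 (0.34) and the serine synthesis enzyme Psat1 (0.31). The one lower in both pairs was Cryab, a small heat shock protein (-0.31). Of 24 metallothionein and NRF2 target genes 13 were higher and 0 lower in both pairs, with a median of 0.17 (0.22 and 0.09). Sod1, which removes superoxide, had 8667 and 7217 against 10956 and 9619, and Cat, catalase, was higher by 0.34. Against control, 3 members of the first list had risen and 4 fallen by any amount, and 4 members of the second had risen and 1 fallen. Hsp90aa1, at 15718 and 16047 in control, was among the risen. Herpud1 and Psat1 were among the fallen, and their GFP-positive cells lay below control. Herpud1 had 2913 and 3046 in control, 1596 and 1861 in GFP-negative and 2196 and 2199 in GFP-positive cells. Psat1 had 6846 and 6912, then 4586 and 4043, then 5578 and 5099.

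Genes of the extracellular matrix and of fibroblast identity were lower. Of 49 genes 29 were lower and 7 higher in both pairs, with a median of -0.15 (-0.17 and -0.08), and 8 were lower and 0 higher at the unadjusted p. In 29 of the 49 the treated cells had fallen against control by any amount, and some of these, such as Dcn and Mfap2, are among the fallen responders. Col1a1, the main chain of type I collagen, had 23936 and 18026 in GFP-negative and 20470.2 and 10236.5 in GFP-positive cells (-0.52 ± 0.16). Col14a1, a fibril-associated collagen, was 0.65 and 0.74 lower, Mfap2 of the microfibrils 0.47 and 0.54 lower, the protease Fap 0.28 and 1.09 lower and the metalloprotease inhibitor Timp3 0.33 and 0.34 lower. Of 13 smooth muscle genes 8 were lower in both pairs and 1 was higher (median -0.25). Mylk, myosin light chain kinase, had -0.92 (-0.42 and -1.42 in the pairs) and Myh11, smooth muscle myosin, -0.79 (-0.45 and -1.12). Acta2, smooth muscle actin, was 0.06 and 0.35 higher. In 28 genes of contraction and stress fibres the median was -0.10, with Zyx, zyxin of focal adhesions, 0.25 and 0.66 lower.

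Imprinted genes also leaned to the lower side, with 20 of 36 lower and 7 higher in both pairs and a median of -0.08 (-0.17 and -0.09). Rian, a maternally expressed non-coding RNA of the Dlk1 cluster, had 3944 and 3504 in GFP-negative and 2961 and 1113 in GFP-positive cells. Nnat, neuronatin, had 382.8 and 483.7 against 214.4 and 283.0, and Igf2r, the receptor that clears IGF2, was 0.68 and 0.12 lower. Dcn, counted in this list too, and Peg3 belong to the fallen responders. In all, 5 members of the list had fallen with treatment by any amount, Igf2r among them, and 2 had risen. Slc22a18, a maternally expressed transporter, went the other way at its brighter probe set, by 0.27 and 1.86, while the pairs disagreed at the other. Among 22 epithelial keratins and junction genes 10 were higher and 4 lower in both pairs (median 0.13), with Krt8, Krt18 and Krt7 among the higher ones. Krt7 had risen by 2.52 with treatment and was 0.16 and 0.24 higher. Of the 12 keratinocyte markers kept, 3 were higher and 3 lower in both pairs, and at the unadjusted p 0 were higher and 2, Ivl and Dsc3, lower. The summed signal of all markers on the array, given above, was higher in GFP-positive cells in both pairs, in pair 2 by less than the difference of Sprr1a alone (1592 against 2568). Of the keratins in the list, Krt14, Krt16, Krt17, Krt1 and Krt15 were too dim to be kept, while Krt10, Krt5 and Krt6a were kept. Krt10 had 225.1 and 295.1 in GFP-negative against 325.8 and 402.7 in GFP-positive cells. Krt5 had 137.0 and 128.2 against 279.0 and 52.4, and Krt6a 210.9 and 22.6 against 151.0 and 87.1. The part of such cells in this result was not tested.

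Genes of nucleoside handling and of DNA methylation differed by small amounts in the median. Of 32 genes of nucleoside uptake and metabolism 14 were higher (43.8%) and 3 lower (9.4%) in both pairs, against 27.6% and 27.3% of all genes. Their median was 0.08 (0.05 and 0.12). Abcb1b, a drug efflux pump, had 151.5 and 142.6 in control, 341.5 and 197.5 in GFP-negative and 529 and 384 in GFP-positive cells and was the sole member past the unadjusted p. Uck2, a uridine-cytidine kinase, was 0.20 and 0.28 higher and the ribonucleotide reductase subunit Rrm2b 0.31 higher in either pair. Dnmt1, the methyltransferase that decitabine traps, was read at 1440 and 827 against 1312 and 987 by its main probe set, -0.13 in pair 1 and 0.25 in pair 2, and its sign turned when GFP-positive or GFP-negative replicate 2 was left out. Its 2 other probe sets were lower in both pairs. For the de novo methyltransferase Dnmt3b, 1 probe set was 0.88 higher and the other 1.06 lower. The 25 genes of DNA methylation as a whole had a median of 0.05.

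Markers of the cell cycle and of DNA damage gave no common direction. The 41 S phase genes had a median of 0.00 (-0.03 and 0.06), with Mcm2, a replicative helicase subunit, at 1811 and 1080 against 972 and 848 and Cdt1, which licenses origins, 0.21 and 0.44 higher. The 39 mitosis genes had -0.12 in pair 1 and 0.19 in pair 2, opposite signs. Of 39 p53 targets 13 were higher and 6 lower in both pairs (median 0.04). Mdm2, the ubiquitin ligase that p53 induces, had 4245 and 4960 in GFP-negative and 5543 and 7526 in GFP-positive cells and 1795 and 2371 in control. Cdkn1a, the p53-induced inhibitor of cyclin-dependent kinases, was level at 11316 and 10837 against 11306 and 11567 (0.05 ± 0.12), and the kinase Plk3 was 0.82 and 0.69 lower. The 45 interferon response genes had a median of -0.04, yet the class I histocompatibility genes H2-D1 and H2-K1 were both 0.45 higher. The 36 genes of ERK output had -0.06, with the ERK inhibitor Spry1 0.26 and 0.81 lower.

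The sort was made on a transgene of the X chromosome, and the other genes of that chromosome showed no shift between the fractions. The 443 X-linked genes had a median difference of 0.002 (-0.05 in pair 1, 0.04 in pair 2), with 119 higher (26.9%) and 132 lower (29.8%) in both pairs. The 12714 autosomal genes had 0.001, with medians of single autosomes from -0.02 on chromosome 19 to 0.02 on chromosome 10. Under the alternatives the X median lay between -0.04 and 0.03. Among the X-linked genes of smallest p on the higher side were several that had risen with treatment. Taf7l and Rhox5 are given above, and Trap1a, a tumour antigen gene, had 178.6 and 36.3 in GFP-negative against 386.4 and 206.8 in GFP-positive cells. The predicted gene Gm364, Dcaf8l and Mageb16, of the MAGE family, were higher by 1.18, 0.71 and 0.81 in pair 1 and by 1.97, 1.84 and 1.57 in pair 2. Trap1a and Mageb16 passed the brightness filter of 67.71 only through the GFP-positive arrays, as the mean of their other arrays lay below it. Their higher signal was thus a condition of their being kept and is no result. Col4a5, a basement membrane collagen, was the clearest lower one, at 5453 and 4472 against 3902 and 3208.

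Genes of X inactivation itself differed less. Xist had 5386 and 832 in control, 4217 and 547 in GFP-negative and 3497 and 518 in GFP-positive cells, a difference of -0.17 ± 0.15 with an adjusted p of 0.906. It was thus far lower in the arrays numbered 2 of all groups than in those numbered 1, while the 7 Y-linked genes on the array, of which 4 were kept, had summed signals of 727 and 226 in GFP-negative and 645 and 243 in GFP-positive cells, with none above the array median on all treated arrays. The 17 genes of X inactivation and escape had a median of 0.03 (-0.12 and 0.10). Kdm6a, a histone demethylase that escapes inactivation, was 0.17 and 0.71 higher, and Pgk1, subject to inactivation, 0.14 and 0.16 higher.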

How the data were processed

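Total RNA of mouse dermal fibroblasts was measured on 6 Affymetrix arrays in 3 groups of 2. The deposited table holds 1 linear signal intensity for each of 45101 probe sets and array. The authors made these intensities with MAS5 per the submitters' processing notes, which name neither a version nor settings in the sources used here. Every array was brought to the same mean, 500, after trimming 2% at each end. The 64 control probe sets were dropped. Of the other 45037, the platform annotation gave 34945 a single gene symbol, 932 several and 9160 none. Probe sets dimmer than 67.71 on average (the 40th percentile) were left out of the tests, and 27022 were kept. Before log2 a constant of 30.64 was added (the 25th percentile of signal, as a median over the arrays), so that differences of dim genes are understated.

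Comparisons used limma 3.58.1 in R 4.3.3, with a linear model of the 3 groups over all 6 arrays and the replicate number as a block, which leaves 2 residual degrees of freedom. The eBayes step used a mean-variance trend, tests were two-sided, and p-values were adjusted by Benjamini-Hochberg over the 27022 probe sets. Arrays were paired by replicate number because the comparison is defined that way. Deviations from the group means correlated between arrays of the same number by 0.556, 0.506 and 0.513 for the 3 pairs of groups. The labels call the replicates biological and do not say which animals or cultures they came from, so the p-values reflect only how much these samples vary, which may be technical. Data were also simulated from the blocked fit, with its replicate effect and spread, which favours that fit in advance. There the blocked fit found more of the true changes than the fit without the block. Its false calls were a larger share than the threshold allows, while the fit without the block made none. The simulation thus cannot tell which fit suits the real arrays better.

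The genes named were the 12 largest called differences in each direction, filled by smallest p where fewer were called (here all), from each of 26 lists the 5 members with the smallest p or fewer, and Xist, Dnmt1, Dazl, Krt8, Krt18, Ccn3, Asb5 and Cdkn1a. Responders, X-linked genes and further list members were chosen after their values were seen. The members and lists were chosen with earlier results of these data known. The alternatives were other normalizations, offsets, filters and thresholds, no block, no trend, fewer arrays, and other choices of probe sets.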

Additional observations from a re-analysis of the deposited data

How the results depend on the processing

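The count of called probe sets between the fractions, 0 as reported, was also 0 with no replicate block, with quantile normalization over all arrays or, chosen after seeing the data, within each replicate number, with median centring, with other offsets and filters, without a mean-variance trend and with a minimum difference of 1. It was 52 with only the 4 treated arrays, 1 without the probe sets whose suffix (_x_at, _s_at or _a_at) marks possible binding to related transcripts, 1 at an adjusted p of 0.1, and 1 to 42 with 1 array left out: 42 without control replicate 1, 35 without control replicate 2, 19 without GFP-negative replicate 1, 13 without GFP-positive replicate 1 and 1 without either replicate 2 of the treated groups. The lone array of a group is then assumed to vary like the others.

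The median difference of responders that fell kept its sign under every alternative run. It was -0.29 with no replicate block, -0.52 with no mean-variance trend, where only 3 probe sets qualified, -0.15 and -0.12 when responders of 1 replicate number were read in the other, and -0.34 to -0.13 with 1 array left out. The median of those that rose was 0.27 with no replicate block, 0.67 with no trend (5 probe sets), 0.039 to 0.33 with 1 array left out, and -0.00066 for responders of replicate 2 read in replicate 1, the sole reversal of a responder set. The causes were not tested. The lists of germline, heat shock, NRF2, epithelial, drug uptake and p53 genes kept a median above 0, and the matrix, smooth muscle, imprinted and ERK lists a median below 0, in 19 of 19 alternatives; germline lay between 0.28 and 0.87 and matrix between -0.18 and -0.06. The contractile list changed sign in 1, and the S phase, mitosis, interferon, X inactivation and DNA methylation lists in 2 or more.

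Of 1737 values of 99 probe sets of named genes under the alternatives, 1731 kept their direction. The exceptions came with 1 array left out. Cdkn1a ranged from -0.040 to 0.13 and turned without GFP-negative replicate 2, Dnmt1 ranged from -0.10 to 0.22 and turned without replicate 2 of either treated group (-0.10 and -0.065), Sprr1a ranged from -0.30 to 0.94 and turned without GFP-positive replicate 2, and Tex15 ranged from -0.75 to 0.25 and turned without GFP-positive replicate 1 (0.25) or GFP-negative replicate 2 (0.056). The number of arrays limits the precision: with 2 a group, a missing call does not show that a gene was equal in both fractions.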
